A study of Mus musculus with 4 samples.

Results

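Thymocytes, the T cell precursors of the thymus, were carried along in small numbers when thymic epithelial cells (TECs) were sorted, and these cells are described here. They were selected on measured counts of unique molecular identifiers (UMIs), the tags that count captured mRNA molecules. A cell was taken if at least 3 of the 8 T cell genes Cd3d, Cd3e, Cd3g, Lck, Trbc1, Trbc2, Cd8b1 and Rag1 had a UMI and the epithelial gene Epcam had none. The cTEC genes Prss16 and Psmb11 could have at most 2 UMIs in sum, and the mTEC chemokine gene Ccl21a had to stay under 100 UMIs per 10000. Of 28055 cells kept for having 200 genes or more and a mitochondrial part of 25% or less of their UMIs, 696 met these limits, 38 from WT-Control, 191 from WT-RANKL-Ab, 310 from Cd40-/- Control and 157 from Cd40-/- RANKL-Ab. Values for the 4 libraries are given in this order throughout.

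The cells came from droplet-based scRNA-seq of thymus, sorted for EpCAM and against the hematopoietic marker CD45 and the erythroid marker TER119. C57BL/6 mice, either wild type (WT) or deficient in Cd40 (Cd40-/-), were 6 weeks old. They had been injected under the skin at 4 weeks of age, 2 weeks earlier, with 5 mg/kg of an antibody that neutralizes RANKL (RANKL-Ab) or of a control IgG (Control). Each condition is 1 library of cells pooled from 3 mice, so differences between mice cannot be seen and no test between conditions was possible. All intervals cover counting error only, except those of list medians, which come from the spread of the genes in a list.

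Thymocytes pass from a double negative stage, without CD4 and CD8, to a double positive stage in the cortex, where the recombinase genes Rag1 and Rag2 are used to assemble the T cell receptor α chain. Cells whose receptor passes selection become CD4 or CD8 single positive and move to the medulla. Contact runs both ways, since cTECs hold and can enclose thymocytes, while T lineage cells make RANKL, CD40 ligand and lymphotoxin, the signals that mTECs need.

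Libraries shared few barcodes except for 1 pair. The Cd40-/- Control and Cd40-/- RANKL-Ab libraries had 210 barcodes in common, 10.0% of the smaller library, against 0.858% to 1.44% for the other pairs. Of the thymocytes, 9 from Cd40-/- Control and 6 from Cd40-/- RANKL-Ab carried such a barcode, and 1 barcode was a thymocyte in both. Results that use these libraries were therefore also computed without the shared barcodes.

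The name fits the genes that mark the cells, of which Satb1 did not enter the choice. Satb1 (ENSMUSG00000023927; chromosome 17, 51736187 to 51833290 of GRCm38) encodes a chromatin organizer of the T lineage. It was at 1428 UMIs per 1000000 UMIs of the thymocytes (CPM; 95% interval, 1210.3 to 1674), 1329 CPM (1241 to 1422), 1679 CPM (1592 to 1769) and 1516 CPM (1404 to 1634), and at 50.6 CPM in all other kept cells. With every cell thinned to 500 UMIs, 65.7% of thymocytes and 0.420% of Ccl21a-high mTECs had a Satb1 UMI. Ccl21a-high mTECs, defined by at least 100 UMIs of Ccl21a per 10000 and a UMI of Epcam, should lack T cell genes and show how often free RNA gives a UMI. Before thinning, 90.8% of thymocytes had a Satb1 UMI at a median depth of 1358 UMIs, and the median depth of Ccl21a-high mTECs was 6645.5 UMIs.

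The other 4 marker genes are among those that chose the cells, so their levels are a description. Cd8b1 (ENSMUSG00000053044; chromosome 6, 71322788 to 71337494), the β chain of the CD8 coreceptor, was at 1748, 1703, 1415 and 1672 CPM. Lck (ENSMUSG00000000409; chromosome 4, 129548344 to 129573641), the kinase bound to CD4 and CD8, was at 1118, 1471, 1113 and 1280.1 CPM. Trbc2 (ENSMUSG00000076498; chromosome 6, 41546730 to 41548352) encodes a constant region of the receptor β chain and was at 7969, 7372, 6540.3 and 6236 CPM. Its sequence is nearly that of Trbc1, so how UMIs divide between both genes is uncertain. Rag1 (ENSMUSG00000061311; chromosome 2, 101638282 to 101649501) was at 423, 423, 749.8 and 541 CPM and thus highest in Cd40-/- Control. After thinning, 33.8% of thymocytes had a Rag1 UMI (61.2% before) against 0.0431% of Ccl21a-high mTECs.

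The 10 genes with the highest ratio of thymocytes to the other kept cells were Trbc2, Cd8b1, Cd8a, Trbc1, Dntt, Lck, Cd3g, Rhoh, Satb1 and Cd3d, with log2 ratios from 4.51 to 4.96. Cd8a, Dntt, Rhoh and Satb1 are the 4 that the choice of cells did not use. Rhoh (ENSMUSG00000029204), a GTPase of blood cells that brings ZAP70 to the receptor, was at 573, 631, 830.5 and 761 CPM and at 18.8 CPM in the other cells. The most abundant mRNAs outside mitochondrial and ribosomal protein genes were Malat1, Ptma, Actb, Trbc2, Eef1a1, Tpt1, Ppia, Tmsb4x, Ubb and Hmgb1, which apart from Trbc2 are found in most cell types.

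The limit on T cell genes separated cells of unlike content. Of the 696 thymocytes, 20 had 3 of the 8 T cell genes, with 682 CPM of Satb1, and 146 had all 8, with 1531 CPM. Just outside, 38 cells with 2 of the genes passed the other limits and had 65.2 CPM. At the limit for cTEC genes, the 26 thymocytes with 2 UMIs of Prss16 and Psmb11 had 513 CPM of Cd74, an MHC class II chaperone gene that TECs express. The 17 cells with 3 UMIs and no Epcam UMI had 1661 CPM of Cd74, but also 1661 CPM of Satb1, against 1367 CPM in those 26, so this limit and that for Epcam were less sharp. The 62 cells left out for 1 UMI of Epcam had 769 CPM of Satb1, more than the thymocytes with 3 of the T cell genes, and 310 CPM of the epithelial keratin gene Krt8, against 83.9 CPM in the 574 thymocytes without Prss16 and Psmb11. The limit for Ccl21a left out 1 cell each in WT-RANKL-Ab and Cd40-/- Control. Among barcodes removed for few genes or many mitochondrial UMIs, 1, 9, 6 and 2 had at least 3 of the T cell genes.

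Inside the limits, the 8 genes made up a median of 202 UMIs per 10000, from 7.62 to 479. In 5 thymocytes, 2 from WT-RANKL-Ab and 3 from Cd40-/- Control, they were under 20 per 10000, and these cells held 1.25% of the thymocytes' UMIs. They had 0 or 1 UMI of Satb1. In 4 of them the MHC class II genes had 74 to 441 UMIs, and the other one had 125 UMIs of the fatty acid carrier gene Fabp4, 13 of Cdh5 and 7 of Kdr, genes of endothelium. Without these cells, WT-RANKL-Ab had 189 thymocytes and Cd40-/- Control 307.

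Thymocytes made up 0.372% of the kept cells of WT-Control (exact Clopper-Pearson 95% interval, 0.263% to 0.510%). For WT-RANKL-Ab the share was 2.67% (2.31% to 3.07%), for Cd40-/- Control 3.61% (3.22% to 4.02%) and for Cd40-/- RANKL-Ab 7.54% (6.44% to 8.76%). The intervals of the 4 libraries did not overlap. Relative to WT-Control the shares were 7.17 times, 9.70 times and 20.3 times as high, with log2 ratios of 2.84 (95% interval, 2.33 to 3.38), 3.28 (2.79 to 3.80) and 4.34 (3.82 to 4.89). Within Cd40-/- mice, the share with RANKL-Ab was 2.09 times that with control IgG, a log2 ratio of 1.06 (0.78 to 1.34). Without the shared barcodes the Cd40-/- shares were 3.59% and 8.07%. With no limit on Epcam the shares of the 4 libraries were 1.05%, 3.17%, 4.71% and 8.26%, so the ratios to WT-Control were smaller.

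A share also depends on how many other cells a library holds. Epcam-positive cells numbered 9125, 5753, 6775 and 1675, and per 100 of them there were 0.416, 3.32, 4.58 and 9.37 thymocytes. Per 100 Ccl21a-high mTECs, of which 3187, 3356, 1730 and 1017 were found, the values were 1.19, 5.69, 17.9 and 15.4. On this scale the order of the Cd40-/- libraries was the opposite. The libraries lay closer together than on these scales when counted against cTECs without T cell genes, cells with at least 10 UMIs of Prss16 and Psmb11 and 0 of the 8 T cell genes. These numbered 107, 368, 441 and 196, and per 100 of them there were 35.5, 51.9, 70.3 and 80.1 thymocytes. The part of cTEC number in the share of thymocytes was not tested.

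**Figure D1:**
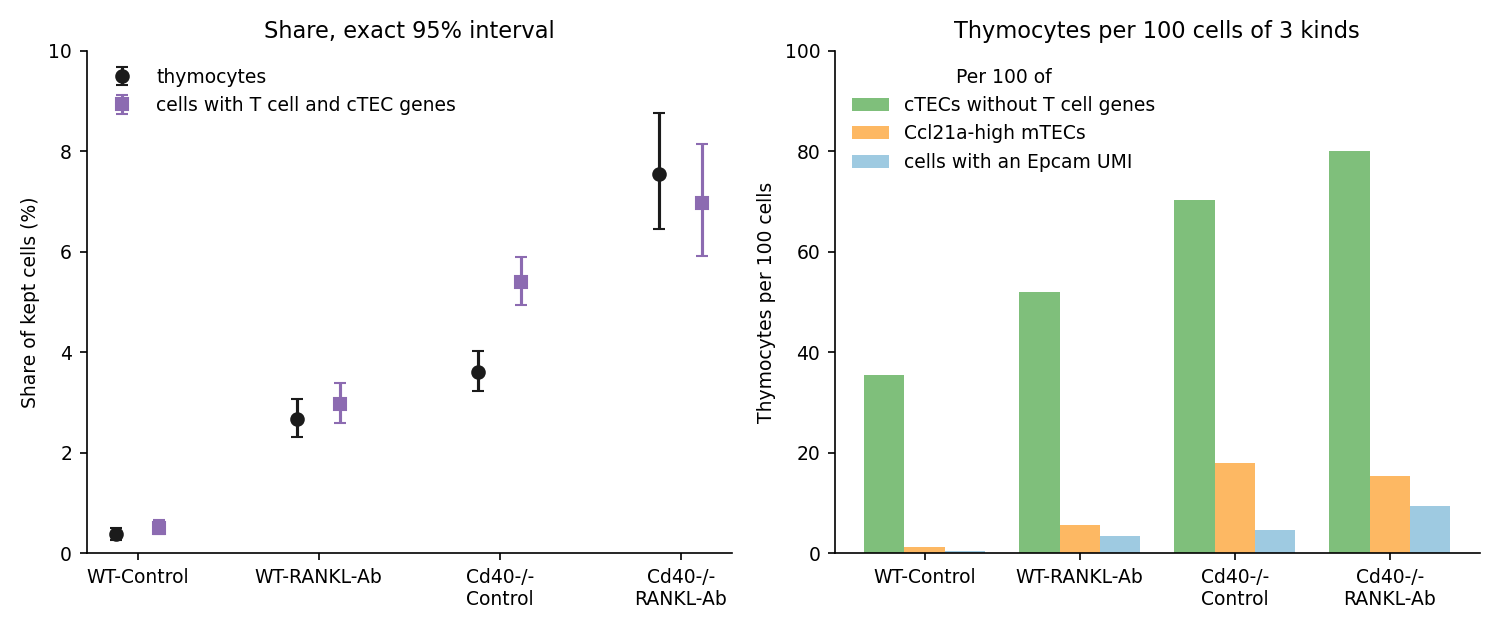
Left, share of kept cells (%) with exact 95% interval for thymocytes and for cells with T cell and cTEC genes in each library, and right, thymocytes per 100 Epcam-positive cells, Ccl21a-high mTECs and cTECs without T cell genes. Thymocytes ranged from 0.372% to 7.54% of the kept cells, and from 35.5 to 80.1 per 100 cTECs without T cell genes.

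More T cell mRNA lay outside the thymocytes than inside. At least 3 of the 8 T cell genes were found in 173, 449, 878 and 324 kept cells. Of these, 52, 213, 464 and 145 had over 2 UMIs of Prss16 and Psmb11 and are called cells with T cell and cTEC genes. They made up 0.509%, 2.97%, 5.40% and 6.96% of the kept cells, so their shares had the same order as those of the thymocytes. A further 83, 44, 103 and 22 cells had an Epcam UMI. Per 100 cells with T cell and cTEC genes there were 73.1, 89.7, 66.8 and 108 thymocytes, and on this scale Cd40-/- Control was the lowest.

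Cells with T cell and cTEC genes were deep, with medians of 25571.5, 19936, 15147 and 24963 UMIs, against 1746, 1410, 1108.5 and 1476 in thymocytes. Doublets of a TEC and a thymocyte and TECs that enclose thymocytes cannot be told apart by these counts. Of all Satb1 UMIs in kept cells, thymocytes held 11.6%, 25.1%, 20.3% and 22.4%, and cells with T cell and cTEC genes 38.5%, 58.0%, 68.0% and 71.1%. For Dntt, the thymocytes' part was 10.1%, 29.9%, 23.2% and 24.8%. The part of UMIs in cells with fewer than 3 T cell genes differed by gene. In WT-Control it was 43.3% for Satb1, 62.0% for Cd4 and 79.7% for Bcl11b, but 32.7% for Dntt and 15.3% for Cd8a. For Satb1 it was 13.8%, 7.78% and 3.29% in the other libraries, and for Bcl11b 43.8%, 28.5% and 20.6%.

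**Figure D2:**
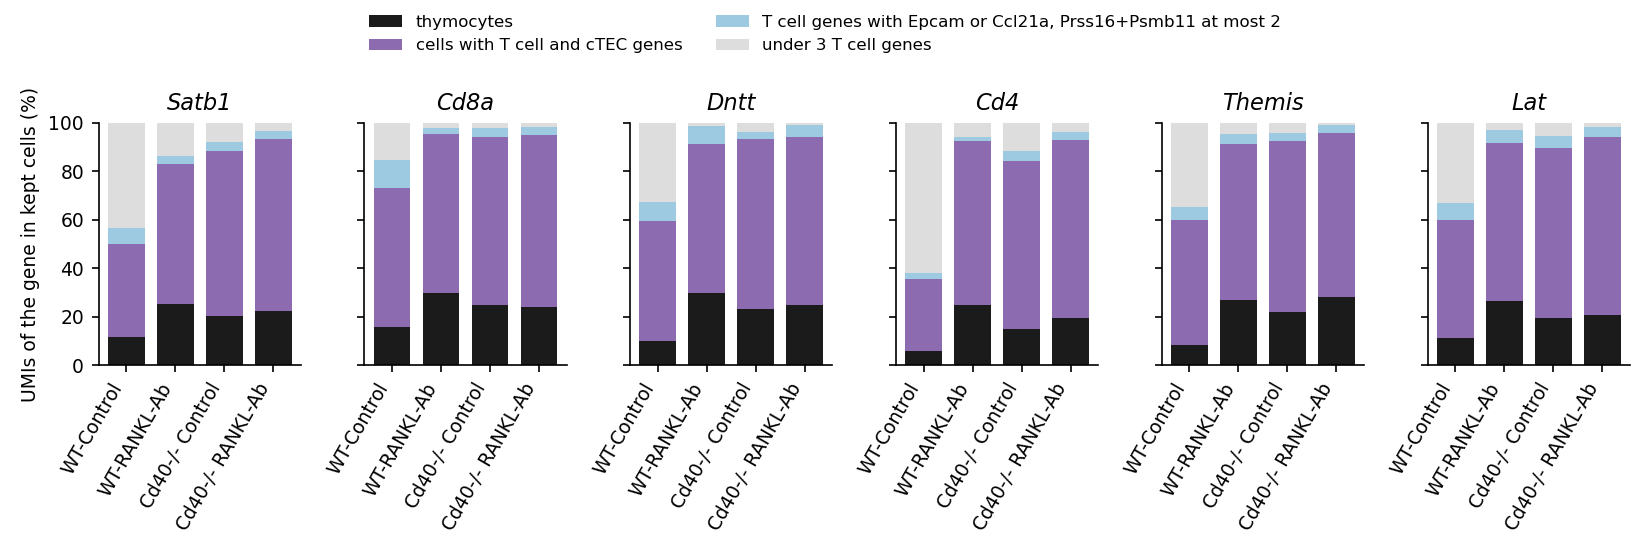
Percent of all UMIs of 6 T cell genes in each library that lay in thymocytes, in cells with T cell and cTEC genes, in cells with T cell genes and an Epcam UMI or Ccl21a at the limit, and in cells with under 3 of the 8 T cell genes. Thymocytes held 11.6% of Satb1 UMIs in WT-Control and 20.3% to 25.1% in the other libraries.

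The thymocytes of a library summed to 106417, 634123, 830853 and 449174 UMIs, which is 0.112%, 1.30%, 1.25% and 2.35% of the UMIs in the library's kept cells. Single cells ranged from 505 to 32537 UMIs. The median number of genes was 977, 806, 705.5 and 854, and the median mitochondrial share 2.64%, 2.67%, 2.72% and 2.67%, nearly the same in the 4 libraries. A gene without a UMI in WT-Control could have a level of up to 28.2 CPM by the limit of 3 counts, against 4.73, 3.61 and 6.68 CPM in the other libraries. WT-Control is thus the library in which absence says least, and it is the reference of 3 of the 4 comparisons.

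Depth and cell cycle genes went together. Under 2000 UMIs there were 470 cells, 67.5% of the thymocytes, and at 2000 or more 226 cells, which held 74.0% of the thymocytes' UMIs. Levels summed over cells are therefore mostly those of the deep cells. A list of 12 proliferation genes summed to 745 CPM in the cells under 2000 UMIs and 7167 CPM in the deeper ones. A UMI of Mki67 or Top2a, genes of dividing cells, was found in 4.26% of the shallow cells and 62.8% of the deep cells (47.1%, 66.7%, 72.0% and 44.7%), and depth by itself gives more UMIs of any gene. The level in CPM does not grow with depth in that way, and it was higher in the deep cells of each library, at 7246, 7614, 7446 and 5870 CPM against 805, 707, 956 and 451 CPM.

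Genes of the double positive stage, taken as a list, ran the other way. The 12 genes summed to 7348 CPM in the shallow and 3853 CPM in the deep cells, with the same order in each library. Ptcra, 1 of the 12, was an exception with 53.2 CPM in the shallow and 99.0 CPM in the deep cells, and 64.9% of the 97 cells with Ptcra had Mki67 or Top2a, against 16.5% of the rest. T lineage transcription factors were at 8696 and 4672 CPM, and genes of the T cell receptor and its proximal signaling at 8103 and 3813 CPM. Unconventional T cell genes were higher in the deep cells, at 437 CPM against 62.7 CPM. MHC class II genes, a sign of TEC mRNA, were at 1953 CPM in the shallow and 888 CPM in the deep cells of all libraries together. By library the levels were 1408, 2731, 2028 and 1149 CPM against 1398, 470.2, 1413 and 371 CPM, so WT-Control did not show the difference. In WT-RANKL-Ab, 211 of the 390 UMIs of the shallow cells came from 1 of the 5 cells with few T cell UMIs. Without those 5 cells the levels were 1557 and 493 CPM.

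**Figure D3:**
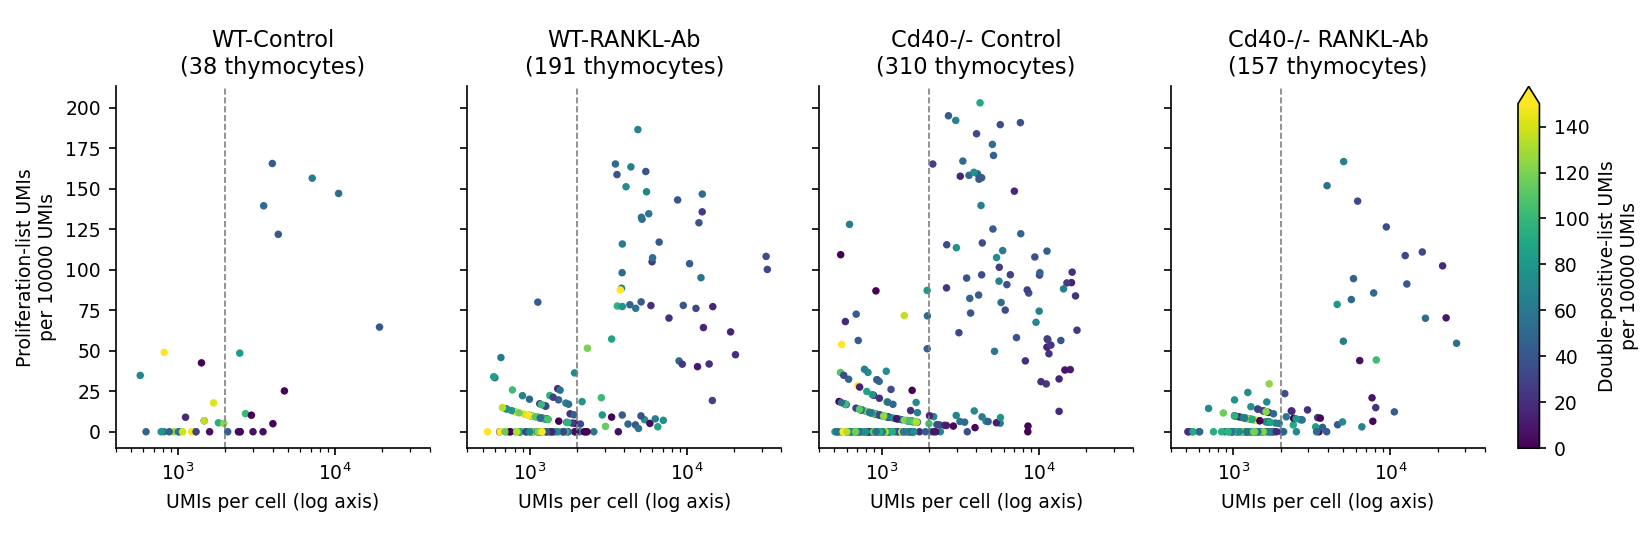
Each point is 1 thymocyte, by its UMIs (log axis) and its UMIs of 12 proliferation genes per 10000, coloured by UMIs of 12 double positive stage genes per 10000, with a dashed line at 2000 UMIs and 1 panel per library. Cells rich in proliferation genes lie mostly to the right of the line, where 226 of the 696 cells are.

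For each comparison, genes whose UMIs in the pair of libraries came to 20 or more were counted as higher or lower past 2-fold, with 10 CPM added to each level. From WT-Control to WT-RANKL-Ab, 439 of 4563 genes (9.62%) were higher and 123 (2.7%) lower. Against the same WT-Control, 751 of 5545 genes (13.5%) were higher and 154 (2.78%) lower in Cd40-/- Control, and 367 of 3917 (9.37%) were higher and 68 (1.74%) lower in Cd40-/- RANKL-Ab. These 3 comparisons share WT-Control with its 38 cells and are not independent. The minimum also favors genes that are higher in them. A gene found in WT-Control alone needs 188 CPM to reach it, while 31.5, 24.1 or 44.5 CPM is enough for a gene found in the other library alone, so the counts in both directions cannot be set against each other. From Cd40-/- Control to Cd40-/- RANKL-Ab, 75 of 6423 genes (1.17%) were higher and 138 (2.15%) lower. Without the barcodes shared by the Cd40-/- libraries, the counts were 738 and 155 for Cd40-/- Control, 356 and 79 for Cd40-/- RANKL-Ab, and 87 and 151 in the last comparison. A minimum that treats both libraries alike, a mean of 100 CPM in the pair, was added after seeing the data. By it, 39 genes were higher and 37 lower of 1531 in WT-RANKL-Ab, 62 and 39 of 1584 for Cd40-/- Control, 53 and 24 of 1550 for Cd40-/- RANKL-Ab, and 21 and 14 of 1638 within Cd40-/- mice. The median log2 ratios of all genes counted at 20 UMIs were 0.11, 0.19, 0.11 and -0.05 in the same order of comparisons.

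The proliferation list summed to 5742, 6059, 5756 and 4159 CPM over all thymocytes and was lowest in Cd40-/- RANKL-Ab. Mki67 (ENSMUSG00000031004; chromosome 7, 135689784 to 135716361), a marker of cycling cells, was at 404, 380.1, 507 and 232 CPM. Top2a, a DNA topoisomerase of mitosis, was at 855, 867, 818 and 557 CPM, and Stmn1, a regulator of microtubules, at 2236, 2359, 2282 and 1623 CPM. Cells with at least 10 UMIs of the list per 10000 numbered 14, 81, 134 and 41, or 36.8%, 42.4%, 43.2% and 26.1% of the thymocytes. In a cell under 1000 UMIs a single UMI passes this limit. Among cells of at least 2000 UMIs the shares were 58.8%, 71.0%, 74.2% and 53.2%. Cd40-/- RANKL-Ab was thus the lowest by the level of each of these genes and by the share of cells. The median log2 ratios of the list were 0.04, 0.07 and -0.53 to WT-Control and -0.40 within Cd40-/- mice. Past 2-fold, 1 of 12 genes was higher in WT-RANKL-Ab, the replication factor gene Mcm5, 1 was lower in Cd40-/- RANKL-Ab, Cdk1, and 1 was lower within Cd40-/- mice, Mki67. The shares of all genes on those sides were 9.62%, 1.74% and 2.15%. After thinning, a Top2a UMI was found in 10.5%, 12.0%, 13.5% and 6.37% of the cells, and in 0.538% of Ccl21a-high mTECs.

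Double positive stage genes were close to even between conditions. Of the list of 12, which were counted in each comparison, 1 gene, Ptcra, was past 2-fold higher in each of the 3 comparisons with WT-Control, against 9.62%, 13.5% and 9.37% of all genes, and 0 were past 2-fold lower, and within Cd40-/- mice the counts were 0 and 0. Ptcra, the invariant partner of the β chain before the α chain is made, rested on 3 UMIs in WT-Control. Its log2 ratios without added CPM were 1.79 (95% interval, 0.18 to 4.11), 1.68 (0.08 to 3.99) and 1.51 (-0.15 to 3.85). The list had median log2 ratios of -0.08, 0.03, 0.22 and 0.15. Its sum was 4802, 4961, 4482 and 4991 CPM.

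Dntt (ENSMUSG00000025014; chromosome 19, 41029275 to 41059525) encodes the enzyme that adds bases at receptor gene junctions and was at 1024, 1268, 911 and 1102 CPM. Cd8a (ENSMUSG00000053977; chromosome 6, 71373427 to 71379173), the α chain of CD8, was at 1278, 1148, 887 and 1095 CPM, and Cd4 (ENSMUSG00000023274; chromosome 6, 124864692 to 124888221) at 216, 189, 253 and 258 CPM. Rag2, the partner of Rag1, was at 84.6, 77.3, 85.5 and 100.2 CPM. For these genes the highest and lowest library were less than 2-fold apart. Arpp21 was at 648, 595, 621 and 557 CPM, Ccr9, the receptor for the cTEC chemokine CCL25, at 517, 479, 512 and 548 CPM, and the water channel gene Aqp11 at 432, 416, 478 and 454 CPM.

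Most cells with Cd4 also had Cd8. Of 292 thymocytes with a Cd4 UMI, 274 (93.8%) had a UMI of Cd8a or Cd8b1, while 18 had Cd4 alone, 334 Cd8 alone and 70 neither. Cd8b1 was among the genes that chose the cells, which favors cells with Cd8. After thinning, a Cd4 UMI was left in 19.1% of thymocytes (42.0% before) against 0.0538% of Ccl21a-high mTECs, and a Dntt UMI in 41.1% (68.8% before) against 0.0538%. A cell with Cd8 alone can therefore be a double positive cell whose Cd4 mRNA was not captured.

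**Figure D4:**
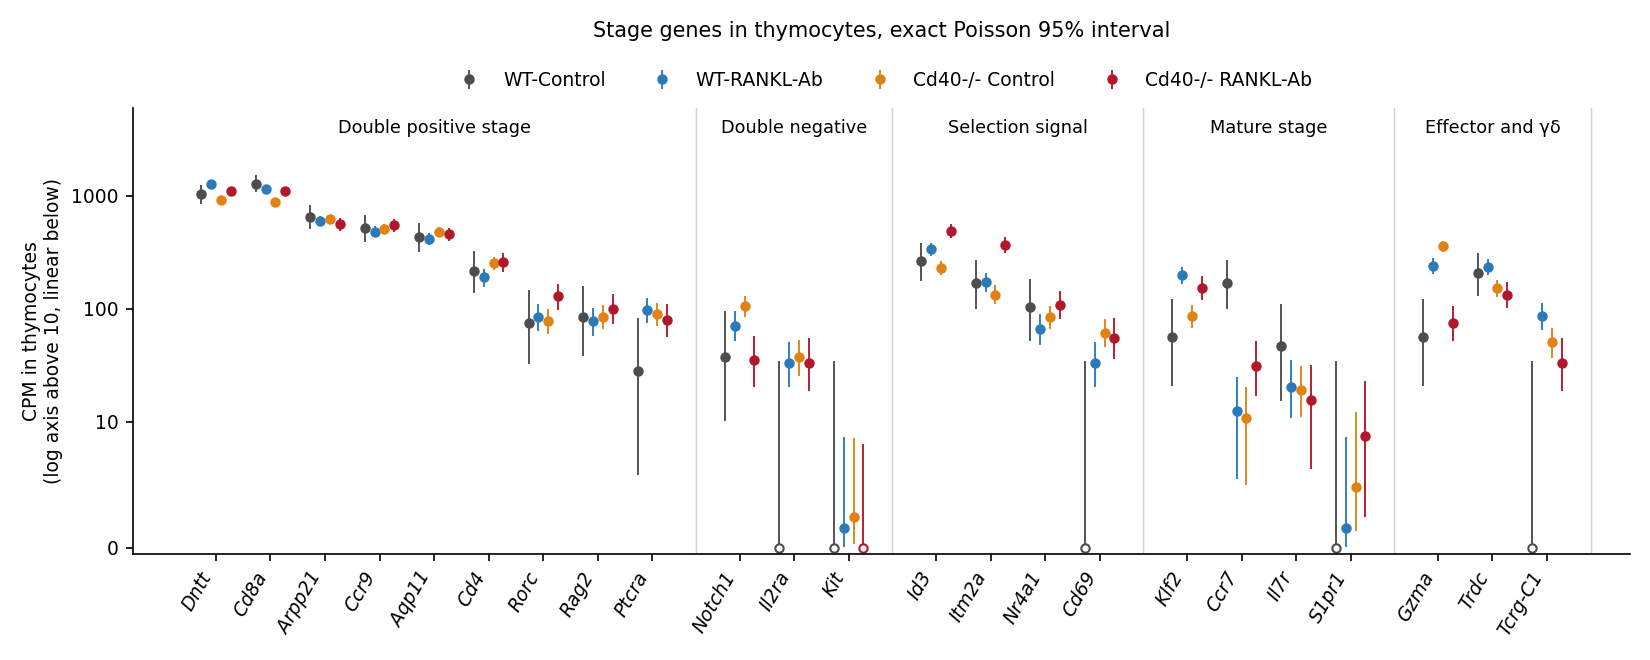
CPM of stage genes in the thymocytes of each library with exact Poisson 95% intervals, on an axis that is logarithmic above 10 CPM and linear below, with open circles at 0. Double positive stage genes lie close together in the 4 libraries, while Il2ra, Cd69, S1pr1 and Tcrg-C1 were at 0 in WT-Control only.

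Receptor and signaling genes were compared as a list of 16, beside the genes that chose the cells. It summed to 5159, 4698, 4729 and 5575 CPM, with median log2 ratios of -0.25, -0.24, -0.09 and 0.29. The direction of the first depends on the weighting, since it was 0.13 by the mean over cells and 0.27 in cells under 2000 UMIs. Past 2-fold, 0 genes were higher or lower in WT-RANKL-Ab, 1 of 16 was lower in Cd40-/- Control, and 2 of 15 were higher in Cd40-/- RANKL-Ab, against 2.78% of all genes lower and 9.37% higher in these comparisons. The former was Cd6, an adhesion receptor, at 122, 88.3, 53.0 and 125 CPM. The latter were Themis, which tunes receptor signals during selection, at 244, 329.6, 420.1 and 545 CPM, and the costimulatory receptor gene Cd28 at 235, 309, 428 and 630.0 CPM. Within Cd40-/- mice 1 of 16, Cd6, was past 2-fold higher with RANKL-Ab, against 1.17% of all genes, and 0 were lower. Lat, the adaptor below ZAP70, was at 865, 864, 684 and 757 CPM, and Ptprc, which encodes CD45, at 489, 495, 663 and 569.9 CPM although the sort was against its protein.

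Trac (ENSMUSG00000076928; chromosome 14, 54220521 to 54224206), the constant region of the α chain, was at 752, 449, 437 and 655 CPM. Few cells showed a variable segment, as far as these short reads at the end of the mRNA reach it. Of 35 Trbv genes in the files, 17 were detected, and 84 thymocytes had a Trbv UMI. More than 1 Trbv gene was found in 1 of these 84 cells (1.19%), against 23 of 206 cells with T cell and cTEC genes (11.2%). For Trav, 45 of 128 genes were detected, and 7 of 93 thymocytes (7.53%) had more than 1, against 55 of 230 (23.9%). The deeper cells give more UMIs, and the part of depth in this difference was not tested. Trbv2 had the most UMIs of the Trbv genes, 25 in 20 cells, and Trav13-1 the most of the Trav genes, 22 in 7 cells.

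Transcription factors of the T lineage had a median log2 ratio of 0.27, 0.50 and 0.45 against WT-Control and -0.03 within Cd40-/- mice, over 12 genes. Their sum was 4558, 5159.9, 6214 and 5869 CPM. Past 2-fold, 0 of 12 were higher in WT-RANKL-Ab, while Cd40-/- Control had 2 and Cd40-/- RANKL-Ab 3, and 0 were lower in any of the 4 comparisons. Of all genes, 9.62%, 13.5% and 9.37% were higher. Myb, needed in double positive cells for survival during rearrangement, was at 132, 224, 377 and 305 CPM, and Tox, needed for the CD4 lineage, at 37.6, 83.6, 93.9 and 142 CPM. The value of Tox in WT-Control rests on 4 UMIs. Ets1 was at 226, 284, 444 and 483 CPM and was the other gene past 2-fold in Cd40-/- RANKL-Ab. Tcf7 and Lef1, which open the T cell program, were at 1231, 1465, 1479 and 1454 CPM and at 254, 314, 407 and 465 CPM. Bcl11b, which fixes T lineage commitment, was at 620.2, 765, 909.9 and 666 CPM.

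Genes of the earliest stage were at low levels. Of 10 double negative stage genes, 3, 10, 8 and 5 were detected, with sums of 75.2, 199, 220.3 and 86.8 CPM. The sums in the other kept cells, 169, 255, 170 and 159 CPM, were higher in WT-Control, WT-RANKL-Ab and Cd40-/- RANKL-Ab. In these libraries they lay beyond the counting intervals of the thymocytes (32.5 to 148 CPM, 166 to 237 CPM and 61.7 to 119 CPM). Ccl21a-high mTECs had 255, 283, 243 and 176 CPM of the list, so its genes are not confined to T cells. The comparison with the other kept cells therefore does not tell how many thymocytes are double negative. Il2ra, the receptor chain CD25 of the double negative stage and of regulatory T cells, was at 0, 33.1, 37.3 and 33.4 CPM. Of the 29 thymocytes with an Il2ra UMI, 44.8% had Cd8a, against 74.96% of the rest, although their median depth was 6294 UMIs against 1305. Kit had 3 UMIs in all thymocytes. Notch1, the receptor that starts the T cell program, was at 37.6, 71.0, 106 and 35.6 CPM, and was past 2-fold higher in Cd40-/- Control and lower from there to Cd40-/- RANKL-Ab. With 3, 4 and 1 of its 10 genes counted in the comparisons with WT-Control, the list is not compared by its median. Past 2-fold higher were 2, 4 and 0 of them, against 9.62%, 13.5% and 9.37% of all genes, and 0 were lower. Apart from Notch1 these had 0 UMIs in WT-Control, so their ratios depend on the CPM added. Within Cd40-/- mice 3 of 4, Notch1, Notch3 and Hes1, were lower, against 2.15% of all genes, and 0 higher. Hes1 rested on 3 UMIs in Cd40-/- RANKL-Ab. Its log2 ratio was -0.67, under 2-fold, when each cell had the same weight.

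Genes switched on by receptor signals at selection summed to 827, 872, 792 and 1411 CPM over a list of 10. Cd69 (ENSMUSG00000030156; chromosome 6, 129267325 to 129275436), an early sign of positive selection, was at 0, 33.1, 61.4 and 55.7 CPM. Against the limit of 3 counts in WT-Control, it was at least 2.18-fold and 1.97-fold higher in the Cd40-/- libraries. Limits of this kind leave out the counting error of the other library. The exact 95% intervals of the log2 ratios began at -0.19, 0.77 and 0.58, so the interval for WT-RANKL-Ab includes 0. Itm2a (ENSMUSG00000031239), a membrane protein gene induced at selection, was at 169, 172, 134 and 367 CPM, with 10 of its 18 UMIs of WT-Control in 1 cell, and Id3 (ENSMUSG00000007872), an inhibitor of E proteins induced by the same signal, at 263, 336, 229 and 488 CPM. Both were highest in Cd40-/- RANKL-Ab and past 2-fold higher there than in Cd40-/- Control, as 2 of 8 genes counted against 1.17% of all genes. In the comparisons with WT-Control 1 of 7, 3 of 8 and 3 of 7 genes were higher, against 9.62%, 13.5% and 9.37% of all genes. In each of the 4 comparisons 0 were lower. Nr4a1, an immediate target of the receptor, was at 103, 66.2, 84.3 and 109 CPM. Of 63 thymocytes with Cd69, 11.1% also had a UMI of Rag2, against 18.3% of the rest.

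Mature stage genes gave sums of 2011, 869, 659.6 and 1251 CPM over 10 genes, highest in WT-Control. In the other kept cells the sums were 1088, 271, 601 and 351 CPM, also highest in WT-Control. Cd52 (ENSMUSG00000000682; chromosome 4, 134082448 to 134095082), a surface glycoprotein gene of mature lymphocytes, was the most abundant of them, with 1249.8, 385, 336 and 712 CPM. The median log2 ratios of the list were -0.69, -1.02, -0.64 and 0.76. Past 2-fold, 2 of 6 genes were lower in WT-RANKL-Ab, 4 of 7 for Cd40-/- Control and 1 of 6 for Cd40-/- RANKL-Ab, against 2.7%, 2.78% and 1.74% of all genes. In the other direction 1 gene, Klf2, was higher in WT-RANKL-Ab and in Cd40-/- RANKL-Ab, and 0 were higher in Cd40-/- Control, where the shares of all genes were 9.62%, 9.37% and 13.5%. Within Cd40-/- mice 2 of 7, Cd52 and the membrane protein gene Ms4a4b, were higher, against 1.17% of all genes, and 0 lower. The log2 ratio of Cd52 there was 1.06, but 0.57, under 2-fold, when each cell had the same weight.

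Single cells weigh on some of these values. Ccr7, the receptor that leads selected cells to the medulla, was at 169, 12.6, 10.8 and 31.2 CPM, but 14 of its 18 UMIs in WT-Control came from 1 cell. Among 23 thymocytes with Ccr7, 8.70% had Rag2, against 17.98% of the rest, with median depths of 2418 and 1341 UMIs. Klf2, a factor of cells ready to leave, was at 56.4, 197, 86.7 and 154 CPM. The exit receptor gene S1pr1 had 9 UMIs in all thymocytes.

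Lineage genes beyond the double positive stage were sparse. The CD4 lineage factor Zbtb7b and the regulatory T cell factor Foxp3 had 1 UMI each in all thymocytes, and the regulatory receptor gene Ccr8 had 0. Genes of the CD4 and regulatory lineage summed to 489, 309, 276 and 334 CPM over 10 genes, of which Ikzf2, at 254, 199, 182 and 267 CPM, gave the most UMIs. Tnfrsf18, a receptor gene of regulatory T cells, was at 132, 59.9, 22.9 and 26.7 CPM from 14, 38, 19 and 12 UMIs. It was highest in WT-Control and past 2-fold lower in the other 3 libraries, in WT-RANKL-Ab only just, with a log2 ratio of -1.02. It was 1 of 3, 1 of 3 and 1 of 2 genes of the list counted, against 2.7%, 2.78% and 1.74% of all genes lower. Past 2-fold higher were 1, 1 and 0, against 9.62%, 13.5% and 9.37% of all genes. That gene was Il2ra, with 0 UMIs in WT-Control. Within Cd40-/- mice 0 of 3 were past 2-fold. A list of 9 CD8 lineage and effector genes summed to 159.7, 301, 428 and 145 CPM, with Gzmb at 0.

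Gzma (ENSMUSG00000023132; chromosome 13, 113093825 to 113100981), a granule protease gene, was at 56.4, 238, 356 and 75.7 CPM from 6, 151, 296 and 34 UMIs. It was thus high in the libraries of WT-RANKL-Ab and Cd40-/- Control and low in the other pair. The log2 ratios were 1.90, 2.46 and 0.37 to WT-Control and -2.10 within Cd40-/- mice, the last of which was -0.80 when each cell had the same weight. A Gzma UMI was found in 130 thymocytes, of which 57.7% had Mki67 or Top2a, against 15.4% of the rest. These cells were deep, with a median of 5108.5 UMIs against 1233.5. After thinning, 5.60% of thymocytes and 0.0215% of Ccl21a-high mTECs had a Gzma UMI.

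The γδ receptor genes followed Gzma in part. Trdc (ENSMUSG00000104876; chromosome 14, 54142851 to 54148868), the constant region of the δ chain, was at 207, 237, 152 and 134 CPM. In WT-Control 13 of 22 UMIs and in Cd40-/- RANKL-Ab 27 of 60 came from 1 cell each, and with the top cell of each library left out the levels were 93.9, 199, 141 and 77.2 CPM. Of 111 thymocytes with Trdc, 50.5% had Gzma, against 12.6% of the rest, and 53.2% had Trac, against 59.7%. The cells with Trdc were deeper, with a median of 5615 UMIs against 1236. Tcrg-C1 was at 0, 86.7, 50.6 and 33.4 CPM, which against the limit of 3 counts is at least 3.08-fold higher in WT-RANKL-Ab and at least 1.79-fold higher in Cd40-/- Control, with exact intervals of the log2 ratios from 1.27 and 0.48 up. Tcrg-C2 was at 28.2, 88.3, 50.6 and 33.4 CPM and Tcrg-C4 at 0, 55.2, 49.3 and 20.04 CPM. The constant genes of γ chains resemble each other, so how UMIs divide between them is uncertain. Zbtb16, the factor of innate-like T cells, was at 0 in the 4 libraries.

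Among the signals that T lineage cells send to TECs, RANKL itself was close to undetected. Tnfsf11 (ENSMUSG00000022015; chromosome 14, 78277445 to 78308043), which encodes RANKL, had 3, 11, 7 and 1 UMIs, or 28.2, 17.3, 8.43 and 2.23 CPM, in 14 thymocytes. Cd40lg, which encodes CD40 ligand, had 4 UMIs in all thymocytes, Lta 6 and Tnf 0. Ltb (ENSMUSG00000024399; chromosome 17, 35194439 to 35196320), a lymphotoxin chain gene, gave most of the list's UMIs and was at 301, 167, 143 and 191 CPM. Tgfb1, a growth factor gene, was at 159.7, 82.0, 24.1 and 77.9 CPM, lowest in Cd40-/- Control. The list of 10 summed to 507, 274, 197 and 278 CPM, highest in WT-Control, as were the sums in the other kept cells, 237, 75.2, 136 and 44.6 CPM. In thymocytes 2 of its genes, Ltb and Tgfb1, had enough UMIs to be counted. Both were past 2-fold lower in Cd40-/- Control than in WT-Control, against 2.78% of all genes. In WT-RANKL-Ab and Cd40-/- RANKL-Ab 0 were past 2-fold from WT-Control. Within Cd40-/- mice 1 of 2, Tgfb1, was past 2-fold higher with RANKL-Ab, against 1.17% of all genes, and 0 were lower. The receptor gene Cd40 had 1, 2, 1 and 0 UMIs in thymocytes, so these cells do not show the genotype.

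Chemokine and exit receptors summed to 752, 529.9, 579 and 661 CPM over 9 genes, mostly Ccr9. Cxcr4, the receptor for the cortical chemokine CXCL12, was at 9.40, 14.2, 31.3 and 51.2 CPM. Survival and death genes summed to 564, 579, 717 and 708 CPM, with median log2 ratios of 0.04, 0.33, 0.33 and -0.01 and 0 genes past 2-fold in any comparison. Among them, the survival gene Mcl1 was at 141, 137, 172 and 171 CPM and Bcl2l11, which encodes the death factor BIM, at 94.0, 77.3, 138 and 102 CPM.

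Stress and interferon genes differed between libraries both in thymocytes and in the other cells. Immediate early and heat shock genes, a list of 10, summed to 677, 1345, 873 and 1494 CPM in thymocytes and to 2108, 2602, 2572 and 4277 CPM in the other kept cells. Hspa1a, a heat shock protein gene with a near-identical copy, Hspa1b, was at 56.4, 524, 156 and 341 CPM. Past 2-fold higher were 2 of 8 genes in WT-RANKL-Ab, 1 in Cd40-/- Control, 4 in Cd40-/- RANKL-Ab and 3 within Cd40-/- mice, against 9.62%, 13.5%, 9.37% and 1.17% of all genes, and 0 were lower. Interferon-stimulated genes, a list of 12, summed to 1438, 380.1, 652 and 316 CPM in thymocytes and 4052, 3502, 2446 and 1399 CPM in the other kept cells. Past 2-fold lower were 2 of 5, 1 of 9, 3 of 4 and 2 of 8 of them in the 4 comparisons, against 2.7%, 2.78%, 1.74% and 2.15% of all genes, and 0 were higher. Ifi27l2a gave 70 of the 153 UMIs of WT-Control, and 35 of these came from 1 cell. The part of mRNA from other cells in these differences was not tested.

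Markers of B, myeloid, erythroid and fibroblast cells were at low levels or 0. Of 5 B cell genes 2, 2, 3 and 2 were detected, but Ms4a1 and Pax5 were at 0 in the 4 libraries, and the list summed to 28.2, 30.0, 34.9 and 37.8 CPM, mostly from Cd79b. Of 8 myeloid and dendritic genes 3, 3, 5 and 2 were detected, while Csf1r, Itgax and Xcr1 were at 0, and the sums were 65.8, 7.88, 33.7 and 4.45 CPM with Lyz2 first. NK and ILC genes, 7 in all, summed to 65.8, 238, 362 and 75.7 CPM, almost entirely from Gzma, with Ncr1, Klre1, Il22 and Il17a at 0. Of 6 erythroid genes 0, 1, 4 and 0 were detected, with sums of 0, 1.58, 6.02 and 0 CPM, and of 5 fibroblast genes 0, 0, 2 and 0, with sums of 0, 0, 6.02 and 0 CPM. Both lists thus gave at most a few UMIs in each library. Of 6 endothelial genes 1, 3, 6 and 1 were detected, with sums of 56.4, 61.5, 125 and 82.4 CPM, mostly from Pecam1, which leukocytes also make, and above the 28.4, 20.8, 31.3 and 18.2 CPM of the other kept cells. In Cd40-/- Control 49 of 104 UMIs came from 1 cell, among the 5 with few T cell UMIs, and without those cells the sum there was 66.7 CPM.

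TEC mRNA was present at a low level. Of 8 genes of TECs in general 4, 7, 7 and 8 were detected. They summed to 319, 239.7, 309 and 323 CPM, with Krt8 or Krt18 first, against 4678, 7458, 4625 and 9026 CPM in the other kept cells. MHC class II genes, 4 of 4 detected and led by Cd74, summed to 1400.1, 979, 1573 and 617 CPM against 41057, 28221, 33567 and 21041 CPM. Without the 5 cells with few T cell UMIs, 325 of 621 UMIs were left in WT-RANKL-Ab and 790 of 1307 in Cd40-/- Control, and the sums in these libraries were 516 and 976 CPM. These levels are a small part of those in TECs, and the part of free RNA in them was not tested. Of 6 cTEC genes 4, 5, 6 and 5 were detected, summing to 395, 456, 646 and 641 CPM with Ctsl first, and Dll4 was at 0 in 3 libraries. This TEC mRNA differed between libraries too. Of the cTEC genes counted, 3 of 4 were past 2-fold higher in Cd40-/- Control than in WT-Control, against 13.5% of all genes, and 0 were past 2-fold in the other comparisons. In Cd40-/- Control 27 of the 537 UMIs of the cTEC genes came from 1 of those 5 cells. The count of cTEC genes was not repeated without it. MHC class II genes past 2-fold lower were 1 of 4 in Cd40-/- RANKL-Ab against WT-Control and 2 of 4 within Cd40-/- mice, against 1.74% and 2.15% of all genes, and 0 were higher. Cd74 was lower within Cd40-/- mice, but 294 of its 672 UMIs in Cd40-/- Control came from 1 of those 5 cells. Without that cell it was at 460 CPM there, against 229 CPM in Cd40-/- RANKL-Ab, which is under 2-fold with 10 CPM added. Of 6 medullary genes 5, 5, 6 and 3 were detected, summing to 113, 36.3, 67.4 and 31.2 CPM, and in Cd40-/- Control to 38.3 CPM without those cells. Tuft cell genes, 5 in all, summed to 113, 164, 155 and 136 CPM, nearly all from Lrmp, a gene that lymphocytes also express, with Pou2f3 at 0. The female transcript Xist was found in the 4 libraries, at 1644, 2454, 2937 and 2315 CPM, and the Y-linked genes Ddx3y, Eif2s3y, Uty and Kdm5d were at 0.

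The genes furthest from even included several that few cells carried. Plac8 (ENSMUSG00000029322; chromosome 5, 100553725 to 100572245), a small cysteine-rich protein gene, was at 0, 224, 236 and 86.8 CPM. Against the limit of 3 counts it was at least 7.94-fold, 8.37-fold and 3.08-fold higher than in WT-Control, and it lay in 23, 28 and 8 cells of those libraries. Zfp36l2 (ENSMUSG00000045817; chromosome 17, 84183931 to 84187947), which encodes an mRNA decay factor, was at 0, 66.2, 152 and 131 CPM. It was at least 2.35-fold, 5.38-fold and 4.66-fold higher than in WT-Control, from 30, 71 and 48 cells. No UMI of the inositol kinase gene Ip6k2 was found in WT-Control, and its level was 82.4 CPM with RANKL-Ab in Cd40-/- mice. Gm9493, whose sequence is close to that of a ribosomal protein gene and whose level is uncertain, was likewise without a UMI in WT-Control and at 168.7 CPM in WT-RANKL-Ab.

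On the lower side, Ubd, a ubiquitin-like gene that TECs express, was at 319, 20.5, 137 and 8.91 CPM in thymocytes and 4227, 1080.1, 2449 and 410.0 CPM in the other kept cells. Its order over the libraries was the same in both. In WT-Control 16 of its 34 UMIs came from 1 cell of 3479 UMIs, and without that cell the level was 175 CPM. The cell also holds most UMIs of Fabp4 and Nrgn in WT-Control. It had 5 of the 8 T cell genes with 11 UMIs, but 0 UMIs of Satb1, 26 of MHC class II genes and 8 of genes of TECs in general, and it lies above the limit of 20 per 10000 that set the 5 cells apart. Ifi27l2a had log2 ratios of -3.62 in WT-RANKL-Ab and -3.80 in Cd40-/- RANKL-Ab. Gm42418, which overlaps ribosomal RNA, had -3.21 in WT-RANKL-Ab, but 248 of its 392 UMIs in WT-Control came from 1 cell of 1411 UMIs. That cell had 3 UMIs of the T cell genes, 21.3 per 10000, and so also lies just above the limit of 20. In WT-Control 0 cells were under this limit, so leaving out the 5 cells did not change its values. Fabp4 had -4.44 in Cd40-/- RANKL-Ab, with 18 of its 22 UMIs of WT-Control in 1 cell. Nrgn had -2.78 and Ccr7 -3.10 in Cd40-/- Control, with 13 of 15 and 14 of 18 UMIs of WT-Control in 1 cell. Rps27rt, a near copy of a ribosomal protein gene, had -2.64 there.

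Within Cd40-/- mice, Gm12840 and Ccl21a were among the furthest on the higher side, with log2 ratios of 2.15 and 1.80. Ccl21a, which has near-identical copies, was also higher in the other kept cells, at 18704 CPM against 4606 CPM. On the lower side Fabp4, Fabp6 and Pglyrp1 had -4.45, -4.12 and -3.89. Single cells of Cd40-/- Control held 125 of 173 UMIs of Fabp4, 135 of 136 of Fabp6 and 103 of 115 of Pglyrp1. The cell was the same for Fabp6 and Pglyrp1. Without the top cell of each gene, Fabp4 was at 58.4, Fabp6 at 1.22 and Pglyrp1 at 14.6 CPM in Cd40-/- Control. All were at 0 CPM in Cd40-/- RANKL-Ab, so the value of Fabp6 rests on 1 cell and the other values do so in part. Each of those cells is among the 5 with few T cell UMIs.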

How the data were processed

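The authors trimmed the reads, mapped them to mm10 with Cell Ranger (5.0.1 in the file headers, 5.1 in the labels) and deposited UMI counts of called cells, without normalization. The unit of the deposited values is the count. Sums over the thymocytes of a library were scaled to 1000000 UMIs, with exact Poisson intervals, and shares have Clopper-Pearson and ratios conditional binomial intervals, at the 95% level. Named genes were those of 29 lists, the 10 most abundant, the 10 highest over other cells, and the 3 furthest on either side in each comparison. Some genes that meet these rules are not reported here. Trbv2 and Trav13-1 were named after their values were seen. The members and lists were chosen with earlier results of these data known. Coordinates are those of GENCODE M21. The tools were numpy 2.4.6 with pandas 2.3.3 and scipy 1.17.1 in Python 3.11.15, matplotlib 3.10.9 for plots, and edgeR 4.0.16 (R 4.3.3) for TMM factors. Intervals of ratios and the 2-fold calls were checked on simulated Poisson counts, which is the model that the intervals assume. UMIs gathered in single cells were not part of that check, so it does not tell how the intervals hold for such genes. Alternatives changed the limits of the choice of cells, the denominator of shares, the scaling, the added CPM, the minimum of UMIs, the depth of cells, and the barcodes, cells or weights used. Doublets were not removed. The study's flow cytometry, its bulk RNA-seq and its scRNA-seq in wells were not analysed here.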

Additional observations from a re-analysis of the deposited data

Results flagged for a closer look

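The RANKL-Ab ratio went in opposite directions in WT and in Cd40-/- thymocytes, beyond the counting interval in each, for 11 of 114 genes compared. With 1 library per condition the difference was not tested for any of them, and all 11 share the WT-Control library with its 38 cells. The 114 genes were drawn from the named genes, so 11 of 114 is not a share of all thymocyte genes. The named genes include those furthest from even in these same comparisons, and Plac8 and Gm9493 entered only in that way. The count was not made over all genes. Log2 ratios are given for WT first and Cd40-/- second, with 10 CPM added.

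Among genes of T cells, Trac had -0.73 and 0.57, Cd52 -1.67 and 1.06, Ltb -0.81 and 0.39, Tgfb1 -0.88 and 1.37, and Ccr7 -2.99 and 0.98. For Ccr7, 14 of 18 UMIs of WT-Control lay in 1 cell. The WT value of Trac was 0.18 when each cell had the same weight, so its direction depends on the weighting.

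In the opposite sense, Gzma had 1.90 and -2.10, the Notch target gene Hes1 2.90 and -1.18, Tcrg-C4 2.70 and -0.98, Plac8 4.55 and -1.34, and Xist 0.57 and -0.34. Hes1, Tcrg-C4 and Plac8 had 0 UMIs in WT-Control, where the floor is 28.2 CPM, so their WT values depend on the CPM added. When each cell had the same weight, the Cd40-/- values of Gzma, Hes1 and Cd52 were -0.80, -0.67 and 0.57, all under 2-fold.

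Gm9493, which has near copies elsewhere in the genome and an uncertain level, had 4.16 and -0.73 with 0 UMIs in WT-Control.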

How the results depend on the processing

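No paired analysis was possible because each condition is 1 pool of mice with no link between libraries. The division of cells at 2000 UMIs, the leaving out of cells low in T cell genes, of the deepest cells or of shared barcodes, the mean over cells for counts of genes, and the minimum mean of 100 CPM in a pair are alternatives chosen after seeing the data. For the changes given here the cause was not tested, except where a minimum changes how many genes are counted.

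The share of thymocytes stayed higher than in WT-Control in each of the 3 other libraries under the alternatives run. Against cells with T cell and cTEC genes, which was not among them, Cd40-/- Control was lower than WT-Control, with 66.8 against 73.1 per 100. With no limit on Epcam the log2 ratios were 1.60, 2.17 and 2.98, against Ccl21a-high mTECs 2.25, 3.91 and 3.69, and against cTECs without T cell genes 0.55, 0.99 and 1.17. Within Cd40-/- mice the ratio was 1.61 for cells with at least 1000 UMIs, 0.19 against cTECs and, reversed, -0.22 against Ccl21a-high mTECs. The remaining 36 of 48 values stayed within the counting interval.

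Counts of genes past 2-fold, given first for the 3 comparisons with WT-Control and then within Cd40-/- mice, depended on the minimum of UMIs. With at least 100 UMIs, 42, 96, 26 and 24 genes were higher and 16, 27, 7 and 23 lower. With a mean of at least 100 CPM in the pair, 39, 62, 53 and 21 were higher and 37, 39, 24 and 14 lower, so the excess of higher genes in WT-RANKL-Ab depends on the minimum. With no minimum, 1018, 1379, 1262 and 128 were higher and 598, 504, 560 and 253 lower. The mean over cells gave 757, 1173, 625 and 180 higher and 245, 300, 220 and 317 lower. With 1 CPM added, 192, 242 and 123 were lower in the first 3 comparisons, and in the last 185 were higher and 313 lower. In cells under 2000 UMIs, 219 genes were higher and 56 lower in WT-RANKL-Ab, and 228 higher in Cd40-/- RANKL-Ab. The other 72 of 112 counts were within 1.5 times the reported ones. TMM factors moved the median of all genes in WT-RANKL-Ab from 0.11 to 0.22. The part of higher genes among those past 2-fold, 78.1%, 83.0% and 84.4% in the comparisons with WT-Control, went to 51.3%, 61.4% and 68.8% with the mean of 100 CPM, to 63.0%, 73.2% and 69.3% with no minimum, and to 75.5%, 79.6% and 74.0% by the mean over cells. With the mean of 100 CPM the larger count within Cd40-/- mice was of higher genes, where it had been of lower ones.

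List medians outside their intervals are given here. For lists with few genes counted the interval is about as wide as the range of the genes, so to stay inside says little of how stable they are. In WT-RANKL-Ab, transcription factors had 0.39 with TMM factors, 0.53 by the mean over cells, 0.40 in cells under 2000 UMIs and 0.37 without the deepest cell of each library. Receptor and signaling genes there had 0.13 by the mean over cells, 0.27 in cells under 2000 UMIs and -0.65 in cells at or over it, so their direction depends on which cells carry the weight. In the cells under 2000 UMIs, double positive genes had -0.15 and proliferation genes -0.27 in WT-RANKL-Ab, and in Cd40-/- RANKL-Ab they had -0.055, reversed from 0.22, and -0.80. By the mean over cells, double positive genes had 0.30 in Cd40-/- Control, and proliferation genes -0.92 in Cd40-/- RANKL-Ab and -0.91 within Cd40-/- mice. Double positive genes within Cd40-/- mice had 0.33 in cells with at least 1000 UMIs. Interferon genes in Cd40-/- Control had -1.32 over genes with at least 100 UMIs.

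Shares of cells with a UMI depend on depth, and 67 of 156 values moved, 66 of them when cells were not thinned or thinned to 1000 UMIs. Depth limits WT-Control most, since its 38 thymocytes gave 106417 UMIs.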
